A study of Mus musculus with 15 samples.

Results

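Ribosome-protected fragments of mouse liver were examined for the 3 PAR bZIP transcription factors, Dbp, Tef and Hlf, and for Nfil3 (E4BP4). The genes were taken by symbol and not by a threshold on measured values. All 4 genes were found, with 5 transcripts, among 20101 named genes and 28167 transcripts in the deposited counts. All mice were wild-type C57BL/6N males of 8 to 10 weeks, held for 2 weeks in a cycle of 12 h light (400 lx) and 12 h dark and then moved to constant darkness, where sampling began after 24 h. Whole liver was taken every 4 h from CT0 to CT24 (CT, circadian time in hours), from 2 mice at each of 7 time points, which gave 14 libraries. No genotype or drug was compared, so the only contrast is time of day.

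PAR bZIP factors (proline and acidic amino acid-rich basic leucine zipper factors) and NFIL3 bind the same DNA element, the D-box. DBP, TEF and HLF activate transcription from it, and NFIL3, which lacks the PAR domain, represses. In liver the family passes time of day from the clock to genes of drug, bile acid and haem metabolism. Dbp is transcribed from E-boxes under CLOCK and BMAL1 (gene symbol Arntl), and Nfil3 is repressed by the REV-ERB receptors.

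The libraries held between 40593197 and 90458783 counts, with a median of 56446208. The major urinary protein (Mup) transcripts took 34.2% to 57.6% of them, and the TMM factors (trimmed mean of M values, the library scaling used here) were lowest in CT12 replicate 2 (0.738) and highest in CT0 replicate 1 (1.46), a span of 0.99 on the log2 scale. A cosine fitted to the log2 factors peaked at 22.4 h with a peak-to-trough difference of 0.46, beside a fitted difference of 0.74 for Hlf and a fitted peak of 22.6 h for Nfil3. With the library total as scale, which leaves these factors out, the adjusted p of the edgeR cosine fit was 0.000148 for Nfil3 and 0.232 for Hlf. Every nonzero count of CT16 replicate 2 was even, against 48.9% to 50.4% in the other libraries. Hepatocyte markers summed to between 32571 and 45810 CPM (counts scaled by TMM to a common library total), and lymphocyte markers to at most 0.507 CPM. Cholangiocyte markers (1 of 4 passed the rhythm test) summed to between 2.34 and 13.5 CPM, with means of 9.42 CPM at CT0, 3.11 at CT8, 2.73 at CT12 and 6.51 at CT24, low where Nfil3 was low, and their part in that result was not tested. The 5 pancreatic acinar markers summed to 2032 CPM in CT20 replicate 2, against a median of 1.96 over the libraries, and all 5 passed the rhythm test. With CT16 replicate 2 and CT20 replicate 2 both left out, Dbp, Tef and Nfil3 still passed the rhythm test used below (adjusted p of 2.64e-06 for Dbp, 1.00e-05 for Tef NM_153484 and 0.00551 for Nfil3, edgeR), and so did Hlf (0.0387), which did not with all 14 libraries.

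The genes lie on 4 chromosomes of mm10 (GRCm38.p6). Dbp is at chr7:45705247-45710203 on the plus strand (NM_016974, 4 exons), Hlf at chr11:90336535-90390917 on the minus strand (NM_172563, 4 exons) and Nfil3 at chr13:52967209-52981039 on the minus strand (NM_017373, 2 exons). Tef has 2 transcripts on the plus strand of chromosome 15, which differ only in the first exon. NM_153484 starts at position 81802673 and NM_017376 at position 81811414, and both end at position 81826863. The promoters, read from the RefSeq windows of GRCm38.p6 that run from 250 bases before to 50 bases after each start (5 windows for the 4 genes), were searched for the letters of 4 known elements, and the matches are shown with their surroundings. The E-box letters CACGTG were found in both Tef windows and in 7.15% of all 32851 windows. The hexamer AGGTCA of REV-ERB sites was found in the Nfil3 window, on the opposite strand as TGACCT, and in 16.3% of all windows. The cAMP response element letters TGACGTCA were found in the Hlf window and in 1.79% of all windows. The D-box letters TTANGTAA, on either strand, were in none of the 5 windows and in 2.32% of all. The Dbp window held none of the 4 motifs, which says only that these letters are not in these 300 bases. Among the listed target genes only the Per3 window held the D-box, at 2 places, 205 and 158 bases before the start. Capitals mark the matched letters, each line reads 5′ to 3′ on the strand of the gene, and a match describes the sequence only.
Tef NM_153484 E-box, chr15:81802534-81802563: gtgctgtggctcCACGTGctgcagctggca
Tef NM_017376 E-box, chr15:81811264-81811293: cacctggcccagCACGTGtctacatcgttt
Nfil3 receptor hexamer, chr13:52981034-52981063: ggcgctcggaacTGACCTactaacacacat
Hlf cAMP response element, chr11:90390908-90390937: ggtgcgggcccTGACGTCActcttgtcagg
Per3 D-box, chr4:151044852-151044881: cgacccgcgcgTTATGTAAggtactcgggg
Per3 D-box, chr4:151044805-151044834: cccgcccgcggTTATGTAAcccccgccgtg

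The first question was whether footprint reads of the members changed with circadian time. Dbp, Tef and Nfil3 passed the test for a 24-h cosine and Hlf did not. Dbp and Tef were high from CT8 to CT16, and Nfil3 was low at CT8 and CT12. Of 17299 transcripts that averaged 10 or more counts, 1929 (11.2%) passed (edgeR quasi-likelihood test, Benjamini-Hochberg adjusted p under 0.05). In bulk tissue a change in footprint reads can come from more mRNA, more ribosomes per mRNA or more cells of a type, and these cannot be told apart here. The labels do not say that replicates shared anything beyond the time point, and with 2 mice per time point the p-values of the cosine rest on the scatter of 14 libraries around it.

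Dbp, the PAR bZIP factor with the widest swing, had 0.658 and 0.898 CPM in the mice of CT0, CT4 gave 0.805 and 0.381, CT8 gave 51.3 and 27.7, CT12 gave 36.0 and 52.3, CT16 gave 9.40 and 8.86, CT20 gave 0.619 and 1.86, and CT24 gave 0.758 and 0.753. The 6 libraries of CT8, CT12 and CT16 all lay above the other 8. The mean was highest at CT12 with 44.2 ± 11.5 CPM (SD, n = 2) and lowest at CT4 with 0.593 ± 0.3002 CPM, a 74.5-fold difference. Most of the rise fell into a single sampling step, since the mean was 66.6-fold higher at CT8 than at CT4 while CT8 and CT12 overlapped. The decline took 2 steps, 4.84-fold from CT12 to CT16 and 7.35-fold from CT16 to CT20. The edgeR cosine fit gave an adjusted p of 5.3e-07, and its fitted peak lay 6.63 above the trough in log2. Only 34 of the 17299 transcripts had a larger fitted difference. Raw counts for Dbp ran from 20 to 4107 reads per library, so the low libraries set the precision of the trough.

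Tef, the next PAR bZIP activator, rose and fell over a narrower range. NM_153484, the transcript with more reads, had 3.17 and 4.28 CPM in the mice of CT0, CT4 gave 3.64 and 2.44, CT8 gave 15.6 and 10.6, CT12 gave 21.04 and 19.02, CT16 gave 16.4 and 13.9, CT20 gave 5.19 and 6.52, and CT24 gave 4.48 and 4.71. Again the libraries of CT8 to CT16 lay above all others. The mean was 20.0 ± 1.43 CPM (SD, n = 2) at CT12 and 3.04 ± 0.851 CPM at CT4, a 6.59-fold difference, and the adjusted p of the edgeR cosine fit was 2.40e-06. Unlike Dbp, Tef rose further from CT8 to CT12, by 1.53-fold with no overlap between the pairs. Its mean at CT16 was 1.32-fold lower than at CT12, and it fell 2.59-fold from CT16 to CT20. NM_017376 had an adjusted p of 3.55e-06 in the same test and a 6.19-fold difference between CT12 and CT4.

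The 2 Tef transcripts share exons 2 to 4, and their 3′UTR counts were equal in 14 of 14 libraries. Their rows are therefore not independent measurements of Tef, and the sharing rule of the counts is not stated. The CDS count of NM_153484 exceeded that of NM_017376 in 11 of 14 libraries, by up to 260 reads in CT12 replicate 1, and was lower in 3, by at most 18 reads. At CT8, CT12 and CT16 the excess was between 17 and 260 reads in all 6 libraries, while at CT20 both libraries had fewer reads for NM_153484. These are raw reads, which rise with the level of Tef. The CDS counts of NM_153484 and NM_017376 were 128 and 116 in CT4 replicate 2. They were 665 and 648 in CT8 replicate 2 and 1687 and 1427 in CT12 replicate 1. These differences were not tested.

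Hlf, the third PAR bZIP factor, varied least. It had 6.28 and 5.29 CPM in the mice of CT0, CT4 gave 5.61 and 4.45, CT8 gave 8.89 and 8.41, CT12 gave 7.22 and 8.07, CT16 gave 13.3 and 7.66, CT20 gave 8.54 and 6.47, and CT24 gave 7.74 and 6.41. The mean was highest at CT16 with 10.5 ± 4.01 CPM (SD, n = 2) and lowest at CT4 with 5.03 ± 0.815 CPM, a 2.09-fold difference, and at CT16 1 mouse had 1.74 times the level of the other. The pairs of CT4 and CT8 did not overlap. The edgeR cosine fit gave an adjusted p of 0.0627 with a fitted difference of 0.74 on the log2 scale, which did not pass. This value sat near the threshold. It was 0.0404 without CT12 replicate 1, 0.0471 without CT24 replicate 1, 0.0462 with a replicate block and 0.267 without CT16 replicate 1, and DESeq2 gave 0.0255. Hlf passed in 8 of 37 alternatives to this fit.

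Nfil3 encodes the repressor, and its 4 lowest libraries, those of CT8 and CT12, were among the 6 in which Dbp and Tef were highest. It had 10.5 and 12.1 CPM in the mice of CT0, CT4 gave 9.17 and 13.3, CT8 gave 1.15 and 3.40, CT12 gave 2.76 and 4.08, CT16 gave 7.40 and 6.35, CT20 gave 12.7 and 9.91, and CT24 gave 11.1 and 9.67. All other libraries lay above these 4. The mean fell 4.93-fold between CT4 and CT8, the same step in which Dbp rose, and recovered over CT16 and CT20. It was 2.28 ± 1.59 CPM (SD, n = 2) at CT8 and 11.3 ± 1.97 CPM at CT20, a 4.97-fold difference, and the 2 mice at CT8 differed 2.96-fold from each other. The adjusted p was 0.00243 in the edgeR cosine fit. The labels give 5 libraries the code R, whose meaning they do not state, and within these 5 Nfil3 did not pass (adjusted p = 0.110, edgeR), with a fitted difference of 1.40 on the log2 scale. They include no library of CT8, where Nfil3 was lowest, nor of CT20 or CT24.

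**Figure D1:**
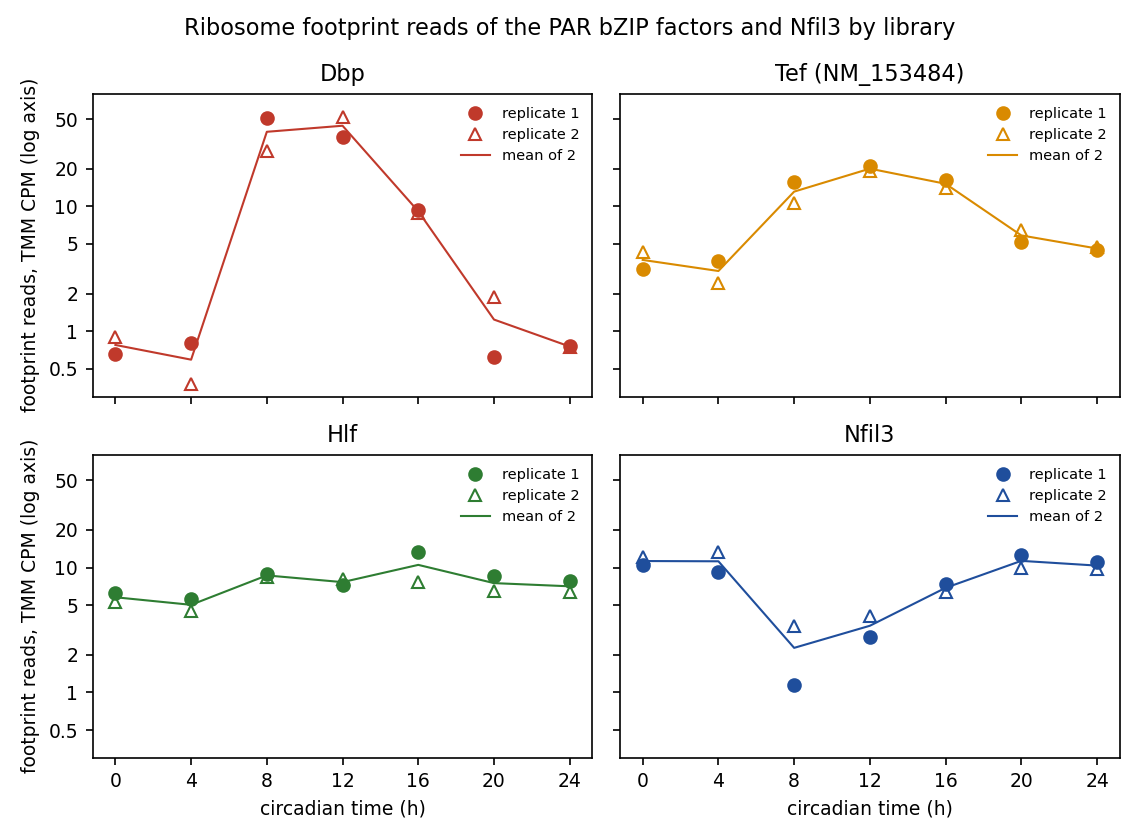
Footprint reads of the 4 genes in each of the 14 libraries, as TMM-scaled CPM on a log axis shared by the panels, against circadian time in hours; filled circles and open triangles are replicates 1 and 2 and the line joins the means of 2 mice. Dbp spans 0.381 to 52.3 CPM and Hlf only 4.45 to 13.3 CPM, and Nfil3 dips at CT8 and CT12, where Dbp and Tef stand high.

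The next comparison was of timing. Peaks were fitted by least squares to log2(CPM + 0.5), which gives a standard error but understates the size of changes in low counts. Dbp peaked first at 11.5 ± 0.486 h (SE, n = 14 libraries), Tef NM_153484 at 13.0 ± 0.455 h, Hlf at 14.7 ± 1.28 h and Nfil3 at 22.3 ± 0.774 h. Tef followed Dbp by 1.53 h, with a 95% interval from 0.904 to 2.15 h. Hlf followed Dbp by 3.21 h (0.482 to 5.95 h), but its interval against Tef, -0.869 to 4.25 h, included 0. Nfil3 peaked 10.8 h after Dbp (9.76 to 11.9 h), 9.29 h after Tef (8.00 to 10.6 h) and 7.6004 h after Hlf (4.58 to 10.6 h). The interval against Dbp ended just short of 12 h, which would be exact antiphase, but the top of Nfil3 was broad. Its means were 11.3 CPM at CT20, 11.3 at CT0, 11.2 at CT4 and 10.4 at CT24. Over the alternatives run, its edgeR fit peaked between 21.1 and 23.5 h and that of Dbp between 10.6 and 12.2 h. Whether the lag was 12 h is therefore not settled. Hlf, which did not pass the rhythm test, had no firm peak. With the library total in place of TMM its edgeR fit peaked at 17.1 h and that of Dbp at 11.3 h, against 14.6 and 11.2 h with TMM. Samples were 4 h apart, and the intervals cover the scatter around the cosine only. Over the 14 libraries Pearson's r of log2 levels was 0.93 between Dbp and Tef, 0.56 between Dbp and Hlf and -0.92 between Dbp and Nfil3. These correlations describe libraries that share their time points and scaling.

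Other tests of time were run beside the cosine. With 7 free time points in place of a cosine, 1222 of 17299 transcripts (7.06%) passed in edgeR. The adjusted p was 8.57e-09 for Dbp, 1.37e-06 for Tef NM_153484, 2.16e-06 for NM_017376, 0.00105 for Nfil3 and 0.0998 for Hlf. For Hlf it was 0.0231 without CT16 replicate 2, the library of even counts, and DESeq2 gave 0.0207. JTK_CYCLE, the rank test named in the methods of the study, was run on counts scaled by the library total and passed 3840 of 17299 transcripts (22.2%) at an adjusted P under 0.05, where the adjustment is over the lags of each transcript. Its adjusted P was 0.000229 for Nfil3 (lag 0 h), 0.00161 for Tef NM_017376 and 0.0079 for NM_153484 (both 16 h), 0.0297 for Dbp (14 h) and 0.823 for Hlf. With TMM as scale the values were 0.0126 for Dbp and for Nfil3, 0.00283 for both Tef transcripts and 0.126 for Hlf, so the order of the members in this rank test depended on the scaling. With the library total as scale, when each library was left out in turn, the JTK_CYCLE value of Dbp ran from 0.0137 to 0.119 and missed the threshold in 8 of 14 cases, with the highest value without CT20 replicate 2. After Benjamini-Hochberg adjustment over transcripts, JTK_CYCLE passed 384 transcripts and Nfil3 among them (0.0227). Dbp (0.167) and Tef (0.0508 for NM_017376 and 0.0958 for NM_153484) then missed the threshold.

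The series closes a full day, so CT24 can be set against CT0. No transcript of 17299 passed (0.0%; edgeR, adjusted p under 0.05), 866 had an unadjusted p under 0.05, and DESeq2 passed 2. The log2 difference of CT24 minus CT0 was -0.04 ± 0.46 (SE, 2 mice against 2) for Dbp, 0.30 ± 0.24 for Tef NM_153484, 0.29 ± 0.25 for Hlf and -0.12 ± 0.33 for Nfil3. The 95% intervals ran from -1.12 to 1.03 for Dbp, from -0.26 to 0.87 for Tef, from -0.29 to 0.87 for Hlf and from -0.91 to 0.66 for Nfil3. A change of up to about 2-fold over the day is therefore within the interval for Dbp.

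Levels of the 4 genes were compared per length of CDS, as RPKM (CPM of the CDS reads per kilobase of CDS). Over the day Tef NM_153484 had the highest mean density with 10.7 ± 7.43 RPKM (SD, n = 14 libraries), followed by Hlf with 8.08 ± 2.28, Dbp with 7.38 ± 10.6 and Nfil3 with 5.09 ± 2.58. This order did not hold in single libraries. Tef exceeded Hlf in 7 of 14 libraries, Hlf exceeded Dbp in 10 and Dbp exceeded Nfil3 in 5, so the neighbours in the order did not differ beyond their spread.

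The order of the means of 2 mice turned over within the day, and single mice departed from it. At CT0 and CT4 the densities ran Nfil3, Hlf, Tef and Dbp from high to low, and at CT8 and CT12 the order was the reverse, Dbp, Tef, Hlf and Nfil3. Hlf exceeded Nfil3 in replicate 1 of CT0 and of CT4, Tef exceeded Dbp in CT12 replicate 1, and Tef led in CT20 replicate 2. At CT16 Tef led with 17.5 ± 2.02 RPKM (SD, n = 2), and at CT20 and CT24 Hlf led, with Nfil3 next. At CT0 the Dbp density was 0.409 ± 0.0445 RPKM and that of Nfil3 7.21 ± 1.04 RPKM. At CT12 they were 23.4 ± 9.15 and 1.88 ± 0.566 RPKM.

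As these proteins compete for the same element, the summed density of the 3 activators was set against that of the repressor as a description of footprints, not of protein. The ratio was lowest in CT4 replicate 2 at 0.976 and highest in CT8 replicate 1 at 87.3, with a median of 2.30. By time point it was 1.52 ± 0.152 (SD, n = 2) at CT0, then 1.49 ± 0.726 (CT4), 51.9 ± 50.02 (CT8), 29.6 ± 4.62 (CT12), 7.49 ± 0.424 (CT16), 2.13 ± 0.390 (CT20) and 2.096 ± 0.151 (CT24). The summed activators exceeded Nfil3 in 13 of 14 libraries, but Dbp alone did so in 5, Tef in 7 and Hlf in 12. At CT8 the Nfil3 density was 0.638 RPKM in replicate 1 and 2.18 RPKM in replicate 2. The summed ratio was 16.5 in CT8 replicate 2, below the 32.9 and 26.3 of the CT12 libraries, so the highest mean at CT8 rests on replicate 1.

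The make-up of the activator sum also shifted. Dbp made up 45.5% ± 7.28 (SD, n = 2) of it at CT8 and 42.2% ± 10.6 at CT12, but 3.75% ± 0.241 at CT0 and 3.67% ± 1.10 at CT4. Hlf, which did not pass the rhythm test, made up 56.9% ± 7.09 at CT0, 59.5% ± 3.36 at CT4 and 15.3% ± 0.998 at CT12. Tef stayed between 31.7% and 54.6% in the 14 libraries, with its highest mean of 52.3% ± 3.29 at CT16.

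**Figure D2:**
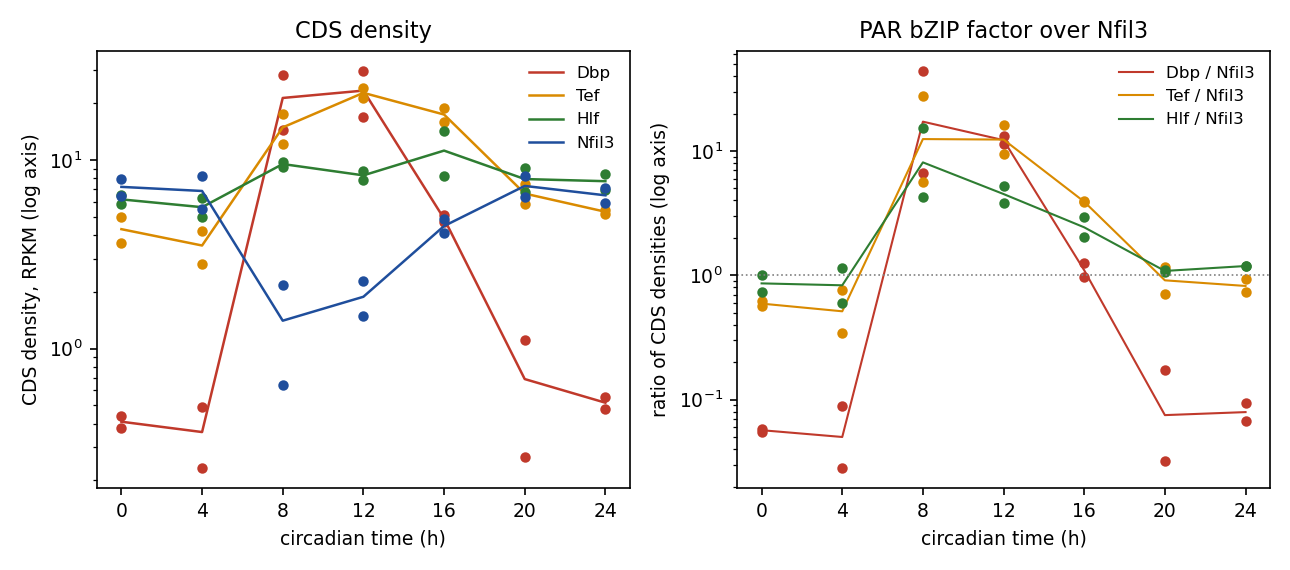
Left, CDS density of the 4 genes (RPKM, log axis) against circadian time, points for libraries and lines for the means of 2 mice. Right, ratio of each PAR bZIP factor's CDS density to that of Nfil3 (log axis, lines join geometric means, the dotted line marks a ratio of 1). Dbp is below 1 in both mice of CT4 and above 1 in both mice of CT8, and Hlf stays between 0.604 and 15.4.

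Reads were further split by region, as the files count 5′UTR, CDS and 3′UTR apart. In Dbp 6270 reads lay in the 5′UTR (377 nt) and 6921 in the CDS over the 14 libraries, so that 47.5% of these reads were in the 5′UTR. The share was 12.8% for Nfil3 (818 reads in 335 nt), 2.97% for Hlf (186 reads in 553 nt), 1.72% for Tef NM_017376 (132 reads in 156 nt) and 0.339% for Tef NM_153484 (28 reads in 111 nt), of which 26 reads came from CT8 replicate 1. Per nucleotide the summed 5′UTR density was 2.36 times that of the CDS for Dbp, 0.607 times for Nfil3, 0.102 times for Tef NM_017376, 0.0493 times for Hlf and 0.0264 times for Tef NM_153484. The median was 0.346 over the 16838 transcripts that had 10 or more CDS reads per library on average, and Dbp stood at the percentile 96.9 of them. The 3′UTRs held 92 reads in each Tef transcript, 21 in Dbp, 16 in Hlf and 13 in Nfil3.

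The summed 5′UTR share of Dbp lay between 46.7% and 48.8% at CT8, CT12 and CT16, where Dbp was high. Where Dbp was low, CT0 gave 48.4%, CT20 gave 44.5%, CT4 gave 40.3% and CT24 gave 32.5% (26 5′UTR reads against 54 of the CDS). In single libraries it ran from 27.9% in CT24 replicate 2 (12 of 43 reads; 95% Wilson interval 16.7% to 42.7%) to 57.7% in CT20 replicate 1 (15 of 26 reads; 38.9% to 74.5%), with a median of 43.7%. Of the 3 libraries with most Dbp reads, CT8 replicate 1 gave 45.9% (44.4% to 47.5%), CT12 replicate 2 gave 43.8% (42.0% to 45.6%) and CT12 replicate 1 gave 53.8% (52.0% to 55.6%). The 2 mice of CT12 thus differed by more than counting error, the only error these intervals cover. For Nfil3 the share was 25.3% and 22.1% in the 2 libraries of CT12, 22.8% and 11.2% at CT8, and between 8.62% and 16.7% in the other 10 libraries. For Hlf it ran from 0 of 362 reads in CT4 replicate 1, which by the limit of 3 counts allows a share of up to 0.829% (the Wilson upper bound is 1.05%), to 6.49% in CT0 replicate 1.

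Whether the ratio of 5′UTR to CDS reads followed time was tested in the 7640 transcripts that reached an average of 10 reads in each region. None passed (0.0%; edgeR, region by cosine interaction) and 247 had an unadjusted p under 0.05. limma on the log2 ratio also passed none. The unadjusted p was 0.147 for Dbp, 0.094 for Nfil3 and 0.0113 for Hlf, with an adjusted p of 0.997 for each. Both Tef transcripts had too few 5′UTR reads to be tested. The 5′UTR reads of Dbp by themselves were rhythmic (edgeR, adjusted p = 1.43e-07), with a fitted peak at 11.4 h that lay 6.83 above the trough in log2, and 98 of 7697 transcripts (1.27%) passed that test. Its CDS reads alone gave 11.1 h and 6.50. The 5′UTR reads of Nfil3 (adjusted p = 0.413) and Hlf (adjusted p = 0.457) did not pass. The last exon of Dbp overlaps Sphk2 on the opposite strand over 539 nt, which include 216 nt of the CDS and the whole 3′UTR but none of the 5′UTR, and whether counting used strand is not given in the sources used here.

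**Figure D3:**
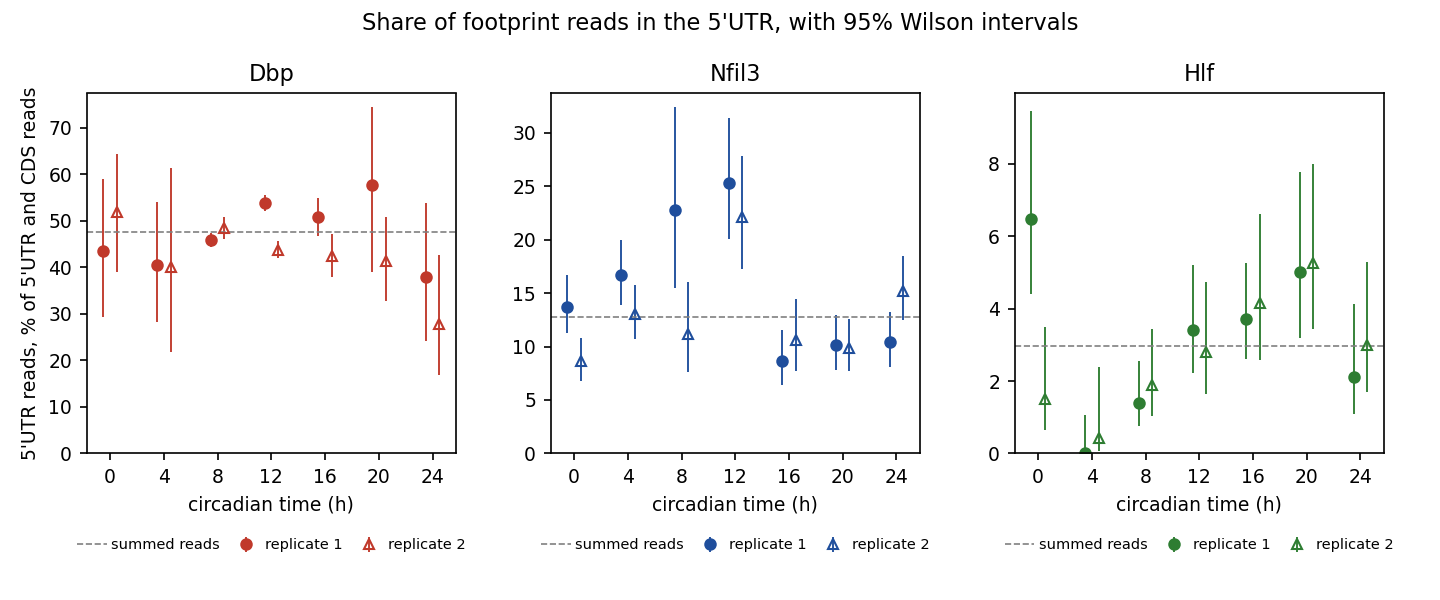
Reads in the 5′UTR as a percent of those in 5′UTR and CDS together for Dbp, Nfil3 and Hlf in each library (each panel with its own axis from 0), against circadian time; bars are 95% Wilson intervals and dashed lines the share of summed reads. Dbp lies on both sides of its summed share of 47.5% at CT0, CT8, CT12, CT16 and CT20 and below it in both libraries of CT4 and CT24, with wide intervals where it has few reads, and both Nfil3 libraries of CT12 lie above its summed share of 12.8%.

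Short open reading frames upstream of the CDS (uORFs) lie in these 5′UTRs. They are shown because ribosomes on them count as 5′UTR reads. Dbp has a uORF of 12 nt that begins 34 nt before the start codon, and a second ATG 26 nt before it whose frame of 42 nt runs into the CDS. Nfil3 has 3 uORFs within the 5′UTR, of 15, 51 and 12 nt, which begin 148, 95 and 91 nt before the CDS. Hlf has 5, of 9 to 108 nt, of which the first 2 share a stop codon and the last 3 another. NM_017376 of Tef has 1 ATG, 136 nt before the CDS, whose frame runs into the CDS, and NM_153484 has none. The number of uORFs did not order the genes by 5′UTR share, as Hlf has the most and a share of 2.97%. The counts used here are per region and not per position, so reads on a uORF cannot be told from other 5′UTR reads. The study, which placed reads by position, reports much ribosome binding in the Dbp 5′UTR outside of any apparent uORF. In the lines that follow capitals mark the start and the stop codon.
Dbp uORF of 12 nt, chr7:45705590-45705601: ATGagctcaTGA
Nfil3 uORF of 15 nt, chr13:52969000-52969014: ATGaaaggctccTGA
Nfil3 uORF of 12 nt, chr13:52968946-52968957: ATGagaggcTGA
Hlf uORF of 21 nt, chr11:90390877-90390897: ATGgactgcctgatgcgcTGA
Hlf uORF of 24 nt, chr11:90390502-90390525: ATGtatttacaaagacagaagTGA

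Genes that act on the members, and genes they act on, were then placed beside them. The median fitted peak-to-trough difference over all 17299 transcripts was 0.44 on the log2 scale. All 3 E-box activators passed the edgeR cosine test, with fitted peaks between CT18 and CT6, where 5.18% of all transcripts passed, and a median difference of 3.93. They were Npas2 at 1.19 h (adjusted p = 2.08e-05), Arntl at 23.0 h (6.55e-05) and Clock at 0.30 h (0.0429). Of these 3, Arntl lay closest to Nfil3, which peaked at 22.6 h in the same fit. The E-box repressors passed in 8 of 8 genes, 7 of them with peaks between CT6 and CT18, where 5.97% of all transcripts passed, and a median difference of 2.96. Bhlhe41 (DEC2) peaked at 10.6 h, Ciart at 12.3 h, Per1 at 13.8 h, Per3 at 13.9 h, Bhlhe40 (DEC1) at 14.1 h, Cry2 at 14.4 h and Per2 at 16.5 h, and Cry1 alone lay later, at 21.0 h. In JTK_CYCLE 6 of these 8 passed (22.2% of all transcripts), without Cry2 (adjusted P = 0.173) and Bhlhe41 (0.126). By fitted peak Dbp, at 11.2 h in the same fit, lay before all but Bhlhe41 in this list. It lay 0.57 h after Bhlhe41 and 1.14 h before Ciart, whose peaks had least-squares standard errors of 0.87 and 0.47 h. This order was not tested.

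Of 3 receptors listed as acting on the Nfil3 gene, 2 passed, against 11.2% of all transcripts. The repressors Nr1d1 and Nr1d2 (REV-ERB alpha and beta) peaked at 8.54 h (adjusted p = 2.58e-07, edgeR) and 11.01 h (7.61e-08), and their highest means were at CT8 and CT12, the time points at which Nfil3 was lowest. Rora, an activator, did not pass (adjusted p = 0.188), though its JTK_CYCLE adjusted P was 0.0196. The fitted differences were 5.56 for Nr1d1 and 4.02 for Nr1d2 on the log2 scale.

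Of 14 genes listed as targets of the family, 13 had enough reads and 11 passed, against 11.2% of all transcripts, 9 with peaks between CT6 and CT18 (5.97% of all) and 2 later (5.18%), with a median difference of 2.74. Por, the electron donor of microsomal cytochromes P450, had the lowest adjusted p (4.76e-07, edgeR) and peaked at 14.8 h. It was followed in that order by Cyp2a5, the coumarin hydroxylase (15.1 h), Per2, Cyp7a1, the rate-limiting enzyme of bile acid synthesis (15.4 h), Per3, Alas1, which begins haem synthesis (15.5 h), Per1 and Cyp2a4 (18.3 h). The 5 of these 8 that are enzymes peaked 3.64 to 7.14 h after Dbp and 1.96 to 5.47 h after Tef NM_153484 in the same fits. Of the other 3 that passed, Cyp2b10 (18.9 h) and Pdxk (16.4 h) also peaked after both, but Ppara (adjusted p = 0.00871, edgeR) peaked at 11.1 h, close to Dbp and before Tef. At CT16, where both were highest, Cyp2b10 had 28.1 ± 30.0 CPM (SD, n = 2) and Cyp2a4 had 3.94 ± 2.98 CPM. A single mouse thus weighs heavily in each of these fitted peaks. In JTK_CYCLE 9 of the 13 targets passed (22.2% of all transcripts), and Cyp2b10 (adjusted P = 0.173) and Ppara (1.00) did not. Cyp7a1 ran from 14.6 ± 3.98 CPM (SD, n = 2) at CT4 to 114 ± 34.9 CPM at CT12. Cyp2a4 and Cyp2a5 are near-identical copies, and the methods keep reads that align to a single place, so their values are uncertain. Cyp3a11 (adjusted p = 0.347) and Nr1i3, the receptor CAR (0.167), did not pass, and Fgf21 had too few reads. In the C/EBP family, other bZIP factors of liver, 1 of 5 passed, near the 11.2% of all transcripts. It was Cebpb at 13.2 h (adjusted p = 0.0143), which did not pass in JTK_CYCLE (adjusted P = 0.517), and the median difference was 0.95. The lists were set by their known roles in work that already knew these data, so these counts describe the genes and are not independent support.

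**Figure D4:**
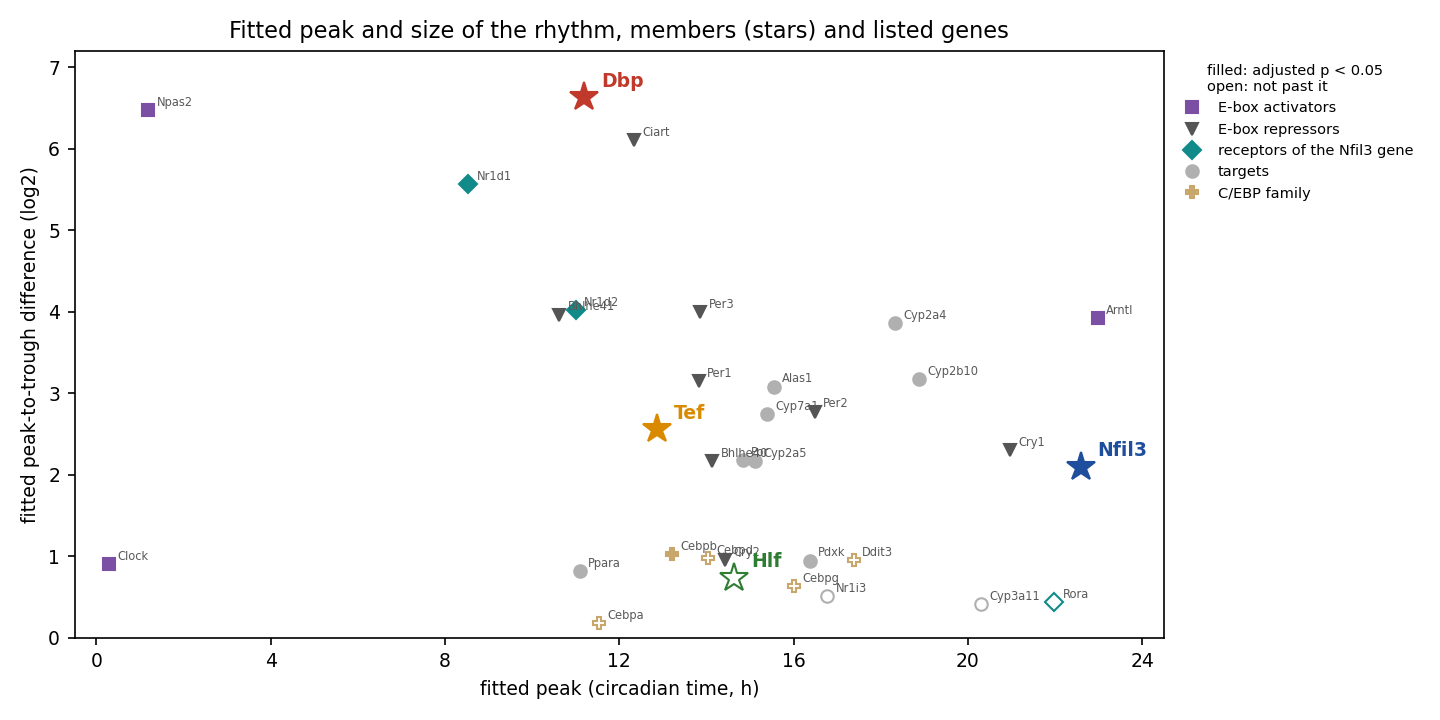
Fitted peak (circadian time in hours) against fitted peak-to-trough difference (log2), both from the edgeR cosine fit, for the 4 members (stars) and the listed genes (other symbols by list); filled symbols passed at an adjusted p under 0.05 and open ones did not. Dbp stands at 11.2 h and 6.63, Nfil3 at 22.6 h and 2.098 near Cry1, with Arntl close in time but larger at 3.93, and Hlf, open, at 0.74 among the C/EBP genes.

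Last, the genes whose level followed each member most closely over the 14 libraries were found by Pearson's r of log2 levels among 8218 genes with a mean of at least 100 reads. For Dbp they were Slc38a3 (r = 0.97), Gne (0.96) and Npc1 (0.94). Their fitted differences, 0.88, 1.202 and 1.08 on the log2 scale, were far below the 6.63 of Dbp, so they shared its shape and not its size. For Tef they were Upp2 (0.97), Gys2 (0.96), the liver glycogen synthase, and Etnk2 (0.95), of which Upp2 had a difference of 2.53, close to the 2.56 of Tef. For Hlf they were Mtss1 (0.86), Serpina6 (0.82), which encodes corticosteroid-binding globulin, and Slc30a1 (0.81). For Nfil3 they were Rfxank (0.97), Nt5m (0.93) and Pfkl (0.92), the liver phosphofructokinase. These were the 3 highest r of 8218 for each gene, and they have no p.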

How the data were processed

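The authors deposited raw read counts, not normalized, for the 3 regions (5′UTR, CDS, 3′UTR) of each RefSeq transcript, 1 file per library. The submitters' processing notes name Bowtie2 2.1.0.0, SAMtools 0.1.19.0, FastQC and mm10. How reads shared by transcripts were counted is not given in the sources used here. Region lengths in the files (other columns, deposited in nt) were used for densities, and the CDS lengths of the members were 1 to 4 nt above the annotation. Samples were grouped by the CT in their titles. A label field of the last pair gives CT00, and the title was used.

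Counts of the 3 regions were added per transcript. Transcripts averaging 10 or more counts were tested with edgeR 4.0.16 (R 4.3.3; TMM, quasi-likelihood F test of cosine and sine, period 24 h, Benjamini-Hochberg), with 7 free time points, and for CT24 minus CT0. DESeq2 1.42.0, limma 3.58.1 and JTK_CYCLE, rewritten in Python 3.11.15 with lags of 2 h, served as further tests. The code was tested on simulated data. The pseudocount was 0.5. Named genes were the members, the 3 genes most like each, and those of fixed lists past the edgeR threshold, up to 8 per list. Cyp2b10, Pdxk, Ppara and the listed genes that did not pass were named after their values were seen. The members and lists were chosen with earlier results of these data known. Alternatives covered scaling, filters, regions, tools, blocks and each library or time point left out. A second run of CT16 replicate 2 was not used here. A listed gene and a group of libraries are not reported here.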

Additional observations from a re-analysis of the deposited data

How the results depend on the processing

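Dbp and Tef passed the edgeR tests of time under all alternatives run, and Nfil3 under all but 1, the 5 libraries of code R alone, which lack CT8, CT20 and CT24 (adjusted p = 0.110). Those libraries passed 325 transcripts, against 1929. The edgeR cosine count was 1255 with 1 transcript per gene, where fewer transcripts were tested, 1162 without CT8 and 1063 without CT12. Hlf passed with no count minimum (0.0236), with CT8 (0.0405) or CT12 (0.0411) left out, with DESeq2 (0.0255) and without CT16 replicate 2 and CT20 replicate 2 (0.0387), and ran from 0.0404 to 0.267 with single libraries left out. With 7 free time points Hlf passed with no count minimum (0.00187) and with DESeq2 (0.0207), and ran from 0.0231 (without CT16 replicate 2) to 0.297 with single libraries left out. These counts were 2197 with the library total as scale, 2468 with no minimum and 2219 with DESeq2, against 1222. The cause of these shifts was not tested.

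The labels do not say that the replicate numbers pair the samples. Over 21 pairs of time points the correlation of same-numbered deviations had a median of 0.032 and a range from -0.107 to 0.274, with 3 above 0.1. These values do not exclude a pairing. With the replicate block the adjusted p of Hlf was 0.0462 and 6 transcripts differed between CT24 and CT0 in place of 0; no other call of a member changed. That count was 1 with the library total and 2 with DESeq2, and 0 to 2 with 1 of the 4 libraries left out (2 without CT0 replicate 1).

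JTK_CYCLE passed 384 transcripts after Benjamini-Hochberg adjustment over transcripts, in which Dbp (0.167) and Tef (0.0508 for NM_017376 and 0.0958 for NM_153484) missed the threshold. Dbp also missed it with CDS reads only (0.0636) and without CT12 (0.249), CT16 (0.113) or CT20 (0.073), and ran from 0.0137 to 0.119 with single libraries left out. The JTK_CYCLE count was 1797 without CT0, 1924 without CT8, 1619 without CT12 and 6327 without CT20, and 2069 (without CT12 replicate 2) to 4993 with single libraries left out, against 3840. It was also over 1.5 times lower without CT0 replicate 1 (2109), CT0 replicate 2 (2445) or CT8 replicate 2 (2253). The 5′UTR count of 98 was 44 with the library total, 152 with a minimum of 1, 64 without CT4, 62 without CT8, 45 without CT12 and 64 (without CT12 replicate 1) to 124 with single libraries left out. With the total without Mup as denominator the mean CDS density was 20.1 RPKM for Tef, 15.5 for Hlf, 13.4 for Dbp and 9.93 for Nfil3. Taking the CT24 pair as CT0 leaves a 24-h cosine as it is. Dbp had 20 to 111 reads per library outside CT8 to CT16, which limits the precision of its trough. The libraries of code R and the pair of doubted libraries were chosen after seeing the data.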
